A study of Homo sapiens with 84 samples.

Results

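SUM-149PT is an established cell line of triple-negative breast cancer that was derived from an inflammatory carcinoma. Its open chromatin was compared between cells given tazemetostat (TAZ) and cells given the vehicle DMSO. All libraries that the labels assign to these groups were taken, 3 for TAZ and 3 for DMSO, of 78 in the deposited count table. Of its 861439 peaks, 231038 held enough counts in SUM-149PT to be tested, as did 21895 gene sums, each the total of the peaks within 10 kb of a gene's transcription start site. The assay was ATAC-seq by the Omni-ATAC protocol on 50000 cells a reaction: a transposase, Tn5, inserts sequencing adapters where DNA is accessible.

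TAZ cells received 5 uM tazemetostat. COMBO cells, used here as a further tazemetostat group, received 5 uM tazemetostat together with 5 uM ipatasertib, an AKT inhibitor. IPATA cells, the reference for COMBO, received 5 uM ipatasertib alone, and DMSO cells received neither agent. The schedule is described for MDA-MB-468 only: tazemetostat or DMSO from day -5 with a passage on day -3 and seeding on day -1, then ipatasertib on day 0 in medium with 2% FBS, and collection 24 hours later. MDA-MB-468, MDA-MB-231 and SUM-159PT, each with 3 TAZ and 3 DMSO libraries, were the other lines given tazemetostat alone.

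Tazemetostat blocks the methyltransferase EZH2, the enzyme of Polycomb repressive complex 2 (PRC2). PRC2 methylates lysine 27 of histone H3 at CpG islands of silent developmental genes, among them the HOX clusters, homeobox factors and neuronal genes, and this mark helps to keep their chromatin closed. It is read by the complex PRC1, and it is removed by the demethylases KDM6A and KDM6B.

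The 12 SUM-149PT libraries (COMBO, IPATA, TAZ and DMSO) held 16053261 to 21459284 counts. Within each group the replicates differed by less than the sampling noise of their counts, with ratios of observed to Poisson variance of 0.800 to 0.923 over 12 pairs, so the 3 libraries of a group count as 1 sample. No SD is therefore given, and standard errors and p-values cover counting error and compare these library sets, not the conditions. The COMBO and IPATA libraries share no library with TAZ and DMSO, and they give each tazemetostat difference in separate libraries, though from the same line and series. Of the epithelial markers, CDH1 had 238, 240.3 and 245 CPM (counts scaled to a common library size) in the TAZ libraries and 256, 256 and 246 CPM in the DMSO libraries. KRT5 and KRT14 were also open, and EPCAM was lower, at 11.4, 9.23 and 11.5 CPM in TAZ and 9.44, 10.9 and 11.2 CPM in DMSO libraries. Among immune markers CD3E had 11.5 to 16.4 CPM over the 6 libraries and PTPRC was not tested, whereas the immune factor SPI1 had 144.5 to 153.1 CPM.

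Tazemetostat was followed by many more large rises than large falls of accessibility. Of 21895 genes, 5856 (26.7%) differed between TAZ and DMSO libraries at an adjusted p under 0.05, 3693 (16.9%) higher in TAZ and 2163 (9.88%) lower. DESeq2 called 3429 genes, 2494 higher and 935 lower, and without DMSO library 2 edgeR called 1429 lower. A log2 difference of 1 or more was reached by 259 of the risen genes and by 13 of the fallen genes. The median log2 difference was 0.44 over the risen genes, -0.18 over the fallen genes and -0.003 over all genes tested. The rises were unevenly spread over 5 equal groups of genes by mean level. In the lowest group 10.5% rose and 1.37% fell, in the second lowest 32.8% and 3.27%, in the middle group 22.8% and 9.11%, in the next 11.5% and 14.5%, and in the highest 6.71% and 21.1%. Long noncoding RNA genes rose in 19.7% of 4947 cases and fell in 5.40%, against 16.3% and 11.6% of 15525 protein-coding genes.

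The 9 genes described here of the 10 protein-coding genes with the largest rises were a mixture of developmental regulators, receptors and neuronal adhesion genes. The values below are scaled CPM of the gene sums in libraries 1, 2 and 3, and each difference is TAZ minus DMSO on the log2 scale. NAP1L3, of the nucleosome assembly protein family, had 9.18, 11.7 and 12.5 CPM in TAZ libraries, against 2.78, 2.02 and 2.04 CPM in DMSO libraries. The groups were far apart, and the log2 difference was 2.29 (SE 0.20, adjusted p = 6.96e-18). TSHZ3, a zinc finger transcription factor of the teashirt family, had 8.39, 12.5 and 11.9 CPM in TAZ and 2.48, 2.02 and 3.05 CPM in DMSO libraries, a log2 difference of 2.10 (SE 0.20, adjusted p = 4.78e-16). FOLH1, which encodes the carboxypeptidase known as prostate-specific membrane antigen, had 13.0, 13.7 and 14.7 CPM in TAZ and 2.48, 3.57 and 3.56 CPM in DMSO libraries, a log2 difference of 2.09 (SE 0.17, adjusted p = 9.02e-20). In both genes the lowest TAZ library stood well above the highest DMSO library. PROX1, a homeobox factor that specifies lymphatic endothelium, was the most accessible of them, with 28.2, 23.8 and 26.2 CPM in TAZ and 9.75, 6.82 and 10.2 CPM in DMSO libraries. Its log2 difference was 1.53 (SE 0.11, adjusted p = 2.09e-22).

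The neuronal members were of lower level than PROX1. ROBO2, a receptor for SLIT guidance cues, had 10.8, 10.4 and 11.1 CPM in TAZ and 3.09, 4.19 and 3.95 CPM in DMSO libraries (log2 difference 1.51, adjusted p = 5.18e-12). ARPP21, a cAMP-regulated phosphoprotein of neurons, had 9.49, 11.2 and 14.1 CPM in TAZ and 4.02, 5.12 and 3.44 CPM in DMSO libraries (log2 difference 1.49, adjusted p = 1.19e-11). LRRTM1, a synaptic leucine-rich repeat protein, differed by 1.59 (adjusted p = 1.11e-08), and the neuroligin NLGN4X by 1.51 (adjusted p = 5.39e-08). The remaining gene, MYADM, a membrane protein first described in myeloid cells, had 9.33, 9.08 and 5.39 CPM in TAZ and 1.86, 3.26 and 3.18 CPM in DMSO libraries, with TAZ library 3 well below the other two (log2 difference 1.49, adjusted p = 8.58e-08). TSHZ3, NLGN4X and MYADM rested on peaks more than 1 kb from the start, and the other 6 had a tested peak nearer. Genes were kept in this set only where TAZ and DMSO libraries did not overlap, as holds for 41.5% of all genes tested. All 9 also rose in COMBO against IPATA, by 0.95 to 2.33 on the log2 scale.

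**Figure D1:**
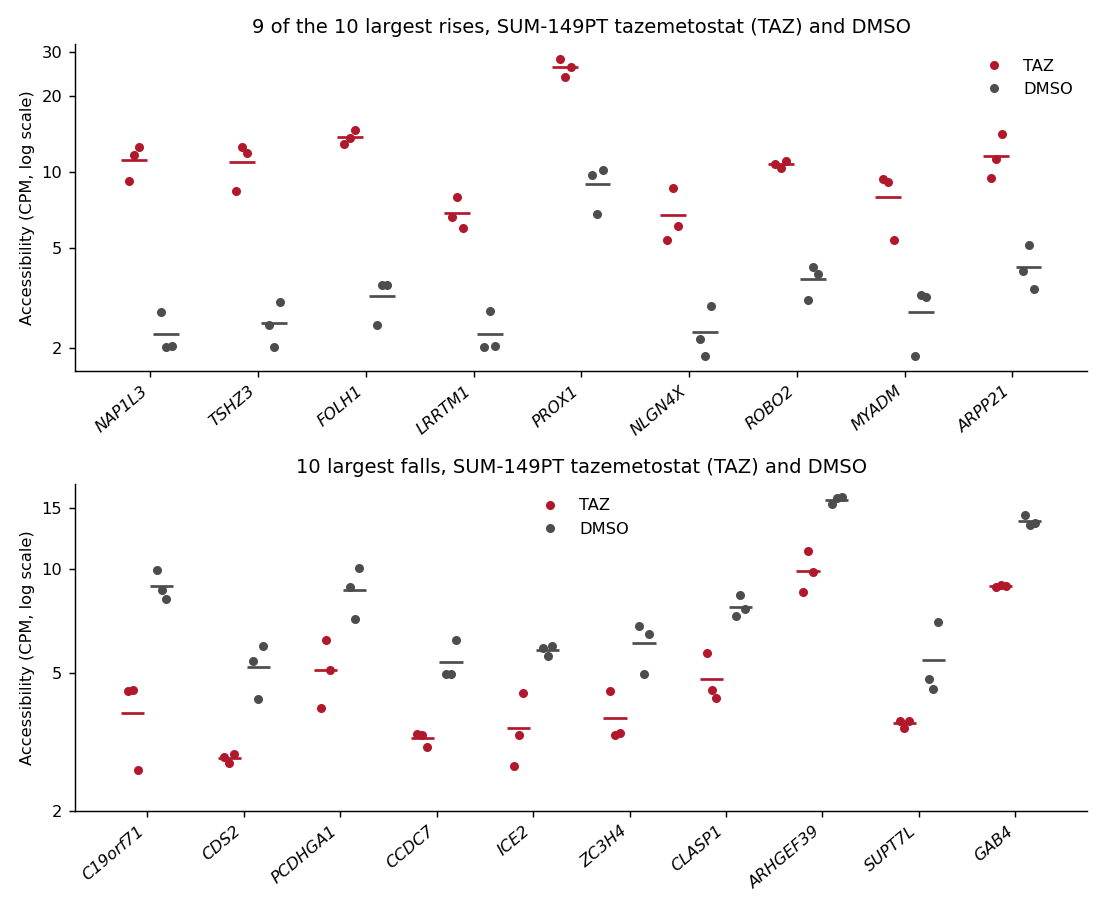
Accessibility of 9 of the 10 largest rises (upper panel) and 10 largest falls (lower panel), in scaled CPM on a log axis; each point is 1 library and each line the mean of 3. TAZ points (red) lie left of DMSO points (grey) for each gene, from 5.38 to 28.2 CPM in TAZ against 1.86 to 10.2 CPM in DMSO among the rises, and from 2.62 to 11.2 CPM in TAZ against 4.19 to 16.0 CPM in DMSO among the falls.

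CpG-rich DNA is the sequence context in which PRC2 is known to bind. The promoter windows of 4 risen genes are given because a tested peak over each rose: the start of NAP1L3 (chrX:93673529-93673828, minus strand), of ARPP21 (chr3:35639275-35639574, plus strand) and of the homeobox factors SIX6 (chr14:60508896-60509195, plus strand) and MSX2 (chr5:174724332-174724631, plus strand). Each runs from 250 bases before to 50 bases after the RefSeq start on GRCh38.p14, 5′ to 3′, and capitals mark every CpG.
NAP1L3: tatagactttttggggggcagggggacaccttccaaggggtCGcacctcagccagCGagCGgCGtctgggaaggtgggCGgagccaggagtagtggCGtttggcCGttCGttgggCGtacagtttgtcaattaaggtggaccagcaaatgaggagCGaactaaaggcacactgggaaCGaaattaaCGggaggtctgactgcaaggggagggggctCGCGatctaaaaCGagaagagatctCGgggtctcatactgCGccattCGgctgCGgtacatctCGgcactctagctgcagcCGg
ARPP21: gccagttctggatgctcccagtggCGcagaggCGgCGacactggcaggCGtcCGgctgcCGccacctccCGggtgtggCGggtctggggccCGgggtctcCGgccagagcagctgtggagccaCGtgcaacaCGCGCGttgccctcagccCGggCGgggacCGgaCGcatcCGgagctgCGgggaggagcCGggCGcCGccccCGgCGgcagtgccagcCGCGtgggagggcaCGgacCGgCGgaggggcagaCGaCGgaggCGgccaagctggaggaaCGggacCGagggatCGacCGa
SIX6: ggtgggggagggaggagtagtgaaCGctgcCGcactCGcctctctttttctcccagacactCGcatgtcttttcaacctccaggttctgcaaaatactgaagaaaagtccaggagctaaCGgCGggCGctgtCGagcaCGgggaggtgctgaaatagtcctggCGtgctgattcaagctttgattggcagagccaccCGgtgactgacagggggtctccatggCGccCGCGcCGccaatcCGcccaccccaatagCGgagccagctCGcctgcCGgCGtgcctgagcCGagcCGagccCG
MSX2: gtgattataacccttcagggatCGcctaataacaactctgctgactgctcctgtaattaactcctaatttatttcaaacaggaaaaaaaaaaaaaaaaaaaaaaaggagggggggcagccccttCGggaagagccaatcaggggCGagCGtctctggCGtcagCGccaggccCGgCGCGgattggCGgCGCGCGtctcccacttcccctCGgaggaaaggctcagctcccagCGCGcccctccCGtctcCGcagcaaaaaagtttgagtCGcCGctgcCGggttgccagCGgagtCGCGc
These windows hold 21, 37, 23 and 24 CpG, beside a median of 21 over all windows of protein-coding genes and 25 over those with a tested peak. The peak over the NAP1L3 window had 3.47, 4.46 and 4.82 CPM of all peak counts in TAZ libraries and 1.15, 0.837 and 0.807 CPM in DMSO libraries, a log2 difference of 2.20. The log2 differences of the peaks over the other windows were 1.73 for ARPP21, 1.11 for SIX6 and 0.94 for MSX2. In COMBO against IPATA the same peaks differed by 2.25 for NAP1L3, 1.11 for ARPP21, 0.93 for SIX6 and 0.60 for MSX2.

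Promoter windows under risen and fallen peaks were compared by their sequence. Under offsets fitted to abundance far fewer promoter peaks fell (6.82%, against 28.1% here), so the fallen set depends on the scaling. The RefSeq table gave 22132 windows of protein-coding genes, of which 16693 overlapped a tested peak, 1405 of them a risen peak and 6809 a fallen one. A median window held 24 CpG under risen peaks, 28 under fallen peaks and 25 under all tested peaks. The ETS motif CCGGAAG, searched on both strands, was present in 3.70% of risen, 22% of fallen and 15.9% of all windows with a tested peak, and in 12.8% of all windows. The GC box GGGCGG was in 64.5% of risen, 74.1% of fallen and 67.6% of windows with a tested peak, and in 56.3% of all windows. Both motifs contain a CpG and, searched on both strands, can share letters, and these shares are descriptions with no test. The AP-1 motif TGANTCA was in 5.62% of risen, 4.36% of fallen and 5.55% of tested windows, and in 6.15% of all. As an example of a fallen promoter with the ETS motif, the start of AURKB, a mitotic kinase, is given below (chr17:8210176-8210475, minus strand, GRCh38.p14), with that motif in capitals.
AURKB: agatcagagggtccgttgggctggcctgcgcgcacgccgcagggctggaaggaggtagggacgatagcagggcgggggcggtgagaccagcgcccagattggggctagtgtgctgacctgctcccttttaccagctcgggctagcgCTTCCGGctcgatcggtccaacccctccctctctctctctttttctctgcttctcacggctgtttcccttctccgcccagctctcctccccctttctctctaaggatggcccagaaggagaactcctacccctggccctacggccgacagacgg
The peak over this window had 16.9, 18.2 and 17.1 CPM in TAZ libraries and 20.1, 24.2 and 21.2 CPM in DMSO libraries, a log2 difference of -0.32 (adjusted p = 2.63e-05).

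Most of the tested PRC2 target genes rose. Of 91 tested developmental transcription factors known as PRC2 targets, 55 (60.4%) rose, 2 fell and the others did not pass the test, beside 16.9% risen and 9.88% fallen of all genes, with a median log2 difference of 0.31 against -0.003 over all genes. SIX6, a homeobox factor of eye and pituitary, had 11.1, 13.1 and 15.4 CPM in TAZ and 4.95, 6.36 and 5.98 CPM in DMSO libraries, a log2 difference of 1.20 (SE 0.15, adjusted p = 2.04e-10). MSX2, a homeobox factor of limb and skull, had 21.2, 25.8 and 24.2 CPM in TAZ and 11.8, 11.2 and 11.3 CPM in DMSO libraries, a log2 difference of 1.06 (SE 0.10, adjusted p = 2.57e-15). FOXA2, a forkhead factor of endoderm, had 58.1, 58.8 and 58.8 CPM in TAZ and 32.6, 25.0 and 30.9 CPM in DMSO libraries, a log2 difference of 0.98 (SE 0.06, adjusted p = 2.21e-26). TAZ and DMSO libraries did not overlap in any of these genes, as holds for 41.5% of all genes tested. EMX2, a forebrain homeobox factor, differed by 1.14 (adjusted p = 0.000552) but by only 0.23 in COMBO against IPATA (adjusted p = 0.578). The 2 fallen genes, named because they were so few, were FOXC1 and EN1, at -0.11 and -0.13 log2, and 1 member fell without TAZ library 1 or any 1 of the DMSO libraries.

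The members of this list were then taken by level. The 45 members of lower mean accessibility (1.54 to 34.6 CPM over the 12 libraries) included 34 that rose and none that fell, with a median log2 difference of 0.64. Of the 46 more accessible members (34.8 to 330.0 CPM), 21 rose and 2 fell, with a median of 0.10. In COMBO against IPATA the whole list had a median of 0.42, with 55 risen and none fallen.

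The HOX clusters divided by chromosome. Of 33 tested HOX genes 36.4% rose and 9.09% fell, beside 16.9% and 9.88% of all genes. A single call among 9 genes is near these shares of all genes. Of 7 tested HOXB genes (chromosome 17) 4 rose, and of 9 HOXD genes (chromosome 2) 7 rose, with no fall in either cluster and medians of 0.60 and 0.51 log2. Of 9 HOXA genes (chromosome 7) only HOXA13 rose and HOXA5 fell, and of 8 HOXC genes (chromosome 12) none rose and HOXC10 and HOXC11 fell, with medians of -0.09 and -0.10. The HOXA fall was lost without TAZ library 1 or 2 or DMSO library 1 or 2, and DESeq2 called no fall in either cluster. Of the HOXC falls, 1 was left without TAZ library 1, DMSO library 1 or DMSO library 3, and 0 without TAZ library 3 or DMSO library 2 or under offsets fitted to abundance. Summed over the HOXB cluster, TAZ libraries had 74.5, 66.9 and 68.6 CPM, against 45.8, 45.3 and 49.3 CPM in DMSO libraries. The HOXD sum was 211.8, 216.5 and 205.8 CPM in TAZ and 151.3, 152.6 and 148.1 CPM in DMSO libraries. HOXC was the most open cluster in both groups, with sums of 400.4, 412.7 and 399.2 CPM in TAZ and 434.5, 430.9 and 432.1 CPM in DMSO libraries. Within HOXB, HOXB13 had 4.75, 5.19 and 4.08 CPM in TAZ and 2.01, 2.02 and 2.29 CPM in DMSO libraries (log2 difference 1.13, adjusted p = 0.000196), and HOXB5 differed by 0.90 (adjusted p = 1.43e-07). HOXD8 had the largest difference of its cluster, 0.85 (adjusted p = 9.25e-05). In COMBO against IPATA 4 HOXB and 8 HOXD genes rose, and 2 HOXC genes fell. The median over all 33 HOX genes was 0.11, and it was at or below 0 under offsets fitted to abundance (-0.002), with a minimum count of 30 (-0.03) and without TAZ library 1 (-0.03).

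Neuronal genes, which are closed in most epithelial cells, rose in 17 (60.7%) of 28 tested cases and fell in none, beside 16.9% and 9.88% of all genes. Their median log2 difference was 0.31, and 11 rose in DESeq2. NCAM1, the neural cell adhesion molecule, had 27.8, 26.8 and 25.1 CPM in TAZ and 14.5, 12.7 and 15.5 CPM in DMSO libraries (log2 difference 0.89, adjusted p = 4.7e-14). The neurexin NRXN3 and the GABA receptor subunit GABRB2 differed by 0.84 and 0.81. Of 12 tested cancer-testis genes, which are normally read in the germ line, 4 (33.3%) rose and none fell, beside 16.9% and 9.88% of all genes. TEX101, XAGE2, PAGE5 and STK31 rose by 0.98, 0.94, 0.58 and 0.44. The median of that list was 0.07, and -0.03 under offsets fitted to abundance. XAGE2 and PAGE5 belong to families of near-identical copies, so their counts are uncertain. Clustered protocadherins, neuronal adhesion genes, rose in 17.6% and fell in 5.88% of 17 tested cases, near the shares of all genes (16.9% and 9.88%): PCDHAC2, PCDHAC1 and PCDHB1 rose by 0.87, 0.39 and 0.27, and PCDHGA1 fell, at -0.77 log2. PAGE5 no longer passed without TAZ library 2 or DMSO library 1 (adjusted p = 0.0663 and 0.0531), nor PCDHB1 without DMSO library 2 or 3 (adjusted p = 0.0614 and 0.0506).

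**Figure D2:**
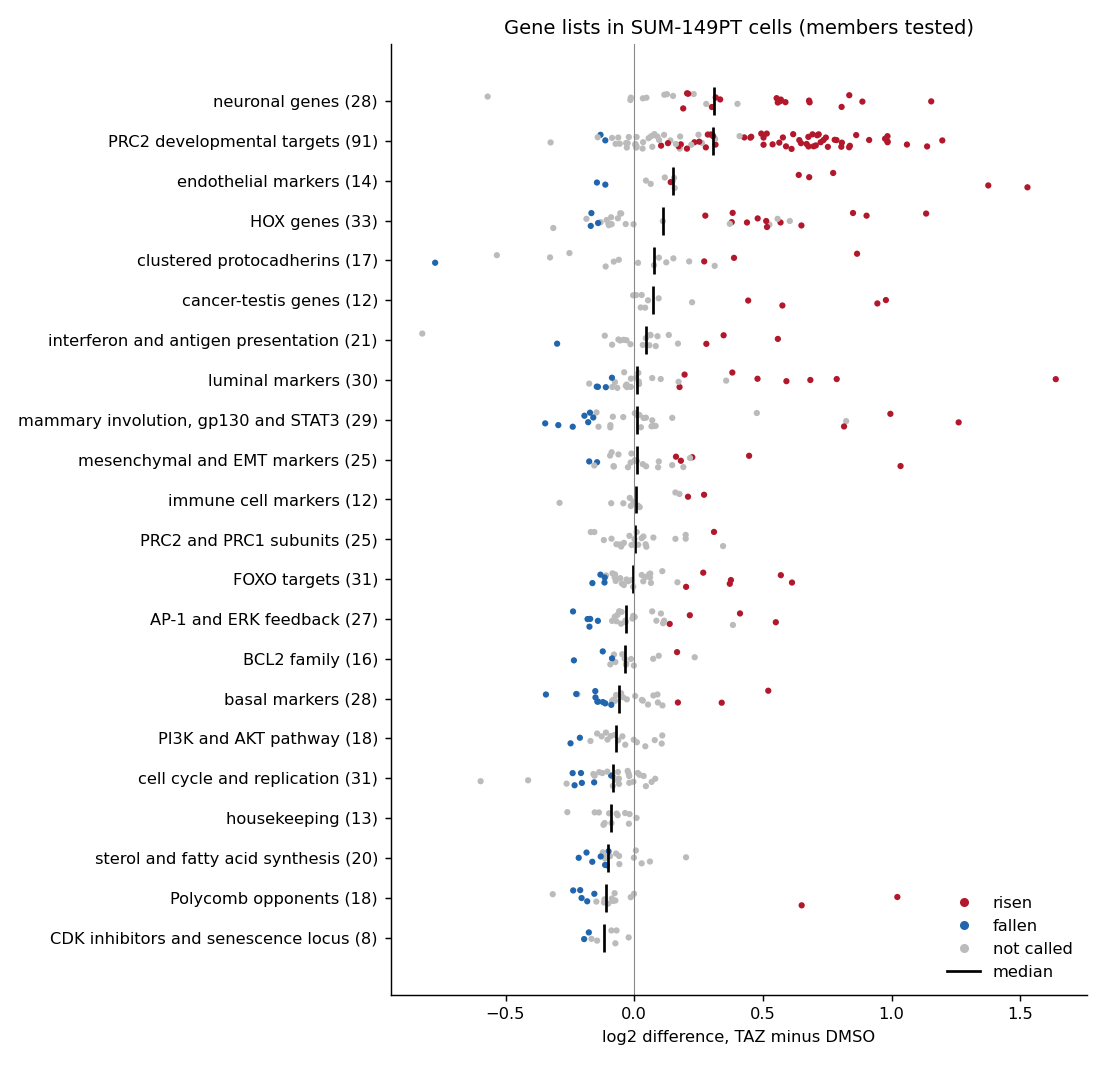
Log2 differences (TAZ minus DMSO) of the tested members of 22 gene lists, with the number of members beside each name; colours mark genes that rose, fell or did not pass the test, and black lines are medians. Neuronal genes and PRC2 developmental targets have the highest medians, both 0.31, and housekeeping genes, of which none passed the test, have a median of -0.09.

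The drug's own complex showed little change of accessibility. EZH2 had 57.1, 59.1 and 57.2 CPM in TAZ and 56.8, 57.7 and 60.8 CPM in DMSO libraries, a log2 difference of -0.02 (SE 0.06, adjusted p = 0.853), and the groups overlapped. The other core subunits EED and SUZ12 differed by 0.04 (adjusted p = 0.633) and -0.05 (adjusted p = 0.764). Of 25 tested PRC2 and PRC1 subunits only CBX8, a PRC1 reader subunit, rose (3 rose and 1 fell without DMSO library 3, and 1 fell without TAZ library 1), with 95.6, 106 and 103 CPM in TAZ and 79.7, 86.5 and 80.2 CPM in DMSO libraries (log2 difference 0.31, adjusted p = 1.72e-09). Among 18 tested genes whose products oppose Polycomb, 2 (11.1%) rose and 5 (27.8%) fell, beside 16.9% and 9.88% of all genes. ASXL3, a partner of the histone H2A deubiquitinase, had 9.33, 11.1 and 10.6 CPM in TAZ and 4.64, 5.89 and 4.84 CPM in DMSO libraries (log2 difference 1.02, adjusted p = 1.96e-07), and SMARCA2, a SWI/SNF ATPase, differed by 0.65 (adjusted p = 3.53e-10). The demethylase genes KDM6A and KDM6B fell, at -0.18 and -0.15 log2, and the SWI/SNF genes ARID1A and SMARCA4 fell, at -0.24 and -0.21. Without TAZ library 1 or 3, or DMSO library 1 or 2, KDM6A no longer passed, at -0.17 to -0.16 log2 (adjusted p of 0.118 to 0.127).

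Lineage genes moved in part. Of 30 tested luminal markers 8 (26.7%) rose and 4 (13.3%) fell, beside 16.9% and 9.88% of all genes, and without TAZ library 1 only 2 fell. The risen genes included PROM1, a progenitor surface marker (0.79), PGR, the progesterone receptor (0.68), and KIT, a receptor kinase of luminal progenitors (0.59). GATA3, the luminal zinc finger factor, had 72.6, 73.8 and 79.5 CPM in TAZ and 66.1, 64.7 and 66.6 CPM in DMSO libraries (log2 difference 0.20, adjusted p = 0.00209). FOXA1, KRT8 and EPCAM did not pass the test, at -0.03, 0.10 and 0.02 log2, and ELF3 fell, at -0.11. GATA3 just missed the threshold without TAZ library 3 (adjusted p = 0.0502), and ELF3 missed it without TAZ library 1 or 2 or DMSO library 2 (adjusted p of 0.0522 to 0.0706). Of 28 tested basal markers 3 (10.7%) rose and 9 (32.1%) fell, with a median of -0.06. The falls numbered 5 without TAZ library 2, 4 in DESeq2, and 5, with 5 rises, under offsets fitted to abundance. KRT14, a basal keratin, had 77.2, 84.5 and 85.8 CPM in TAZ and 103, 103 and 108 CPM in DMSO libraries, a log2 difference of -0.34 (SE 0.04, adjusted p = 1.2e-11). KRT17, its neighbour on chromosome 17, fell, at -0.23, and KRT5 had 160.0, 152 and 158.9 CPM in TAZ and 169.7, 173 and 176 CPM in DMSO libraries (log2 difference -0.14, adjusted p = 0.000428), which in COMBO against IPATA was -0.03. Over peaks within 1 kb of the start alone KRT14 was at -0.09 (adjusted p = 0.903), KRT17 at -0.17 (adjusted p = 0.0755) and KRT5 at 0.022 (adjusted p = 0.886), and 1 basal marker fell. TP63, the basal master regulator, was nearly closed by this measure and did not pass the test. The oxytocin receptor OXTR and the nerve growth factor receptor NGFR, counted among basal markers, rose by 0.52 and 0.34. The third risen member of that list was VIM, the intermediate filament vimentin, with 159.5, 165 and 167 CPM in TAZ and 144, 153 and 141 CPM in DMSO libraries (log2 difference 0.17, adjusted p = 3.72e-05).

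Of 25 tested mesenchymal genes 5 (20%) rose and 2 (8%) fell, near the shares of all genes (16.9% and 9.88%). Without DMSO library 2 only 3 rose, and without TAZ library 1, TAZ library 3 or DMSO library 3 only 1 fell. CDH11, a cadherin of mesenchyme, had 39.6, 42.5 and 45.0 CPM in TAZ and 25.7, 18.5 and 18.5 CPM in DMSO libraries, a log2 difference of 1.03 (SE 0.08, adjusted p = 2.44e-20). ZEB1 differed by 0.16 (adjusted p = 0.0235), and the matrix genes COL6A3 and FN1 fell, at -0.17 and -0.14. ZEB1 did not pass without TAZ library 2 or 3 or DMSO library 2 or 3 (adjusted p of 0.0549 to 0.190). Of 14 tested endothelial markers 6 (42.9%) rose, beside 16.9% of all genes, among them the VEGF receptor genes KDR, FLT1 and FLT4 with PROX1. The 2 that fell were ENG and ROBO4, at -0.14 and -0.11, and neither fall was called without TAZ library 2, TAZ library 3, DMSO library 2 or DMSO library 3 or by DESeq2, with 1 called without DMSO library 1. FLT1 had 44.0, 47.0 and 46.6 CPM in TAZ and 27.8, 24.8 and 27.7 CPM in DMSO libraries (log2 difference 0.77, adjusted p = 1.39e-18). KDR had 3.32, 4.32 and 4.37 CPM in TAZ and 0.774, 1.24 and 2.42 CPM in DMSO libraries, a log2 difference of 1.38 (adjusted p = 9.95e-05) at a low level. Of the 8 tested KDR peaks at any distance from the start, 1 rose and 2 fell. The endothelial genes summed to 548.3 to 588.4 CPM in TAZ and 490.8 to 521.2 CPM in DMSO libraries, and PECAM1 and VWF did not pass the test. Of 12 tested immune markers 2 (16.7%) rose, near the 16.9% of all genes. They were CD14 and ITGAM, at 0.21 and 0.27, and neither rose past the threshold in COMBO against IPATA. ITGAM no longer passed without DMSO library 2 (adjusted p = 0.109). In bulk libraries a change in the share of open cells and a change within each cell cannot be told apart, and the part of other cell types in these differences was not tested.

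Genes of mammary involution and the gp130 and STAT3 pathway, which control the regression of milk-producing epithelium, were mixed. Of 29 tested 3 (10.3%) rose and 7 (24.1%) fell, beside 16.9% and 9.88% of all genes. IGFBP5, an insulin-like growth factor binding protein made during involution, had 41.0, 39.4 and 35.8 CPM in TAZ and 14.9, 17.5 and 16.0 CPM in DMSO libraries, a log2 difference of 1.26 (SE 0.08, adjusted p = 1.36e-25). A2M, a protease inhibitor, had 6.64, 7.78 and 6.41 CPM in TAZ and 2.48, 3.88 and 5.22 CPM in DMSO libraries (log2 difference 0.81, adjusted p = 0.0012). LIF, a gp130 ligand, fell, at -0.35 log2, while STAT3 and JAK1 did not pass the test at -0.09 and 0.07. LIF was at -0.23 without TAZ library 3 and at -0.20 without DMSO library 3, past the threshold in neither (adjusted p = 0.113 and 0.188). Of 16 BCL2 family genes 1 (6.25%) rose and 3 (18.75%) fell, beside 16.9% and 9.88% of all genes. Of these falls, 1 was left without TAZ library 1 or DMSO library 2. HRK, a BH3-only activator of cell death, differed by 0.17 and BAX by -0.23. BMF, another BH3-only gene, had 325, 332 and 322 CPM in TAZ and 336, 333 and 314 CPM in DMSO libraries, and its groups overlapped.

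Growth and signalling genes changed by little. Of 31 tested FOXO targets 6 (19.4%) rose and 4 (12.9%) fell, near the shares of all genes, with a median of -0.004 and 2 falls without DMSO library 2. The risen members included PCK1, the gluconeogenic carboxykinase, at 0.61 and the sestrin SESN3 at 0.57. FOXO3 fell, at -0.13, and FOXO1, AKT1, IRS2 and CDKN1A did not pass the test at -0.07, -0.08, 0.04 and -0.07. Of 18 PI3K and AKT pathway genes none rose and 2 (11.1%) fell, near the share of all genes: PDPK1 and AKT2, at -0.25 and -0.21 log2. Of 31 cell cycle genes 6 (19.4%) fell and none rose, beside 9.88% fallen and 16.9% risen of all genes. In the most accessible of the 5 equal groups of genes, 21.1% fell. The cell cycle falls numbered 2 without DMSO library 1 and in DESeq2, and 3 without TAZ library 3 or DMSO library 2. CDT1, a replication licensing factor, was at -0.24 log2 and AURKB at -0.23. Of 20 sterol and fatty acid genes 7 (35%) fell and none rose, and 4 fell under offsets fitted to abundance. The cell cycle and sterol lists had medians of -0.08 and -0.10, beside -0.09 over housekeeping genes. FASN, the fatty acid synthase, was at -0.22 log2, with 201, 191 and 193 CPM in TAZ and 228, 236 and 216 CPM in DMSO libraries. Of 8 tested genes of the CDK inhibitor list 2 (25%) fell, beside 9.88% of all genes. They were MDM2 and CDKN2D, at -0.19 and -0.18, and CDKN2A was not tested. Among 27 AP-1 and ERK feedback genes 4 (14.8%) rose and 5 (18.5%) fell, beside 16.9% and 9.88% of all genes. BATF3, a bZIP factor, had 88.8, 92.7 and 86.2 CPM in TAZ and 61.3, 58.5 and 62.7 CPM in DMSO libraries (log2 difference 0.55, adjusted p = 5.02e-20). Of 21 tested interferon and antigen presentation genes 3 (14.3%) rose and 1 (4.76%) fell, beside 16.9% and 9.88% of all genes. Without TAZ library 2 only 1 rose, and without DMSO library 2 the number was 0. OAS2, an antiviral synthetase, was at 0.56 log2 and the ubiquitin-like modifier ISG15 at -0.30. None of 13 housekeeping genes passed the test, and 2 fell without DMSO library 3. Single libraries decided some of these calls: AKT2 lost its call without TAZ library 3 (adjusted p = 0.158), MDM2 without DMSO library 1 (adjusted p = 0.0518), OAS2 without DMSO library 2 (adjusted p = 0.0646) and CDKN2D without TAZ library 2 or DMSO library 2 (adjusted p = 0.0619 and 0.112).

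The largest falls were smaller than the largest rises, and most rested on sites away from the named gene's own start. C19orf71 had 4.43, 4.47 and 2.62 CPM in TAZ and 9.90, 8.69 and 8.15 CPM in DMSO libraries, a log2 difference of -1.21 (SE 0.19, adjusted p = 1.11e-07), from a single peak at its start. That peak lies 53 bases from a fallen peak in an exon of FZR1, a cofactor of the anaphase-promoting complex, so both values describe 1 stretch of chromosome 19. PCDHGA1 had 3.96, 6.20 and 5.10 CPM in TAZ and 8.82, 7.13 and 10.1 CPM in DMSO libraries, a log2 difference of -0.77 (SE 0.17, adjusted p = 0.000252). For the other 8 genes no tested peak within 1 kb of the start entered the sum. For CDS2, a CDP-diacylglycerol synthase, the tested peak stood 8522 bases into the gene, and the peak over its promoter was assigned to PCNA. CDS2 had 2.85, 2.74 and 2.91 CPM in TAZ and 5.42, 4.19 and 5.98 CPM in DMSO libraries (log2 difference -0.88, adjusted p = 0.00175). CLASP1, a microtubule plus-end protein, likewise rested on a peak at 7789 bases and had 5.70, 4.47 and 4.22 CPM in TAZ and 7.27, 8.38 and 7.64 CPM in DMSO libraries (log2 difference -0.70, adjusted p = 0.00191). ARHGEF39, a guanine nucleotide exchange factor, differed by -0.67 (adjusted p = 2.79e-06), ZC3H4 by -0.73 (adjusted p = 0.00547), ICE2 by -0.74 (adjusted p = 0.00587), CCDC7 by -0.75 (adjusted p = 0.00547), SUPT7L by -0.63 (adjusted p = 0.0232) and GAB4 by -0.62 (adjusted p = 6.31e-05). SUPT7L was at -0.38 (adjusted p = 0.284) without DMSO library 3 and also missed the threshold without TAZ library 2 or 3 (adjusted p = 0.0696 and 0.0529), and CCDC7 missed it without DMSO library 3 (adjusted p = 0.0571). All 10 were also lower in COMBO than in IPATA libraries, and 4 of them passed the test there: CDS2, CLASP1, PCDHGA1 and ARHGEF39.

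Distal intergenic peaks rose more often than they fell, and peaks at promoters fell more often than they rose unless abundance was corrected for. Of 231038 peaks, 20661 (8.94%) rose and 16876 (7.30%) fell, 6047 and 1256 of them by a log2 difference of 1 or more. Under scaling by total counts alone the numbers were 23261 and 11749. Risen peaks lay a median 61979 bases from the nearest start and 38.5% lay beyond 100 kb, against 14386 bases and 14.5% for fallen peaks and 39012 bases and 27.2% for all tested peaks. Risen peaks had a median 2.79 CPM in TAZ and 1.58 CPM in DMSO, and fallen peaks 9 CPM in TAZ and 11.3 CPM in DMSO. Of 65229 distal intergenic peaks 10.7% rose and 3.73% fell, with a median log2 difference of 0.06. Of 17905 peaks within 1 kb of a start 8.84% rose and 28.1% fell, with a median of -0.12. The promoter falls depended on the scaling: 18.1% fell and 9.80% rose under total counts, and 6.82% fell and 9.76% rose under offsets fitted to abundance, which take out differences that follow a peak's level. They also numbered 16.6% without TAZ library 1 and 16.9% without DMSO library 2, with 7.97% and 7.24% risen. The share of all counts in promoter peaks was 22.1 to 22.8% in TAZ and 23.2 to 24.5% in DMSO libraries, and 23.1 to 23.5% in COMBO and 24.3 to 24.9% in IPATA libraries. The share was lower in TAZ than in DMSO libraries in the 3 other lines too, and its part in the promoter falls was not tested.

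**Figure D3:**
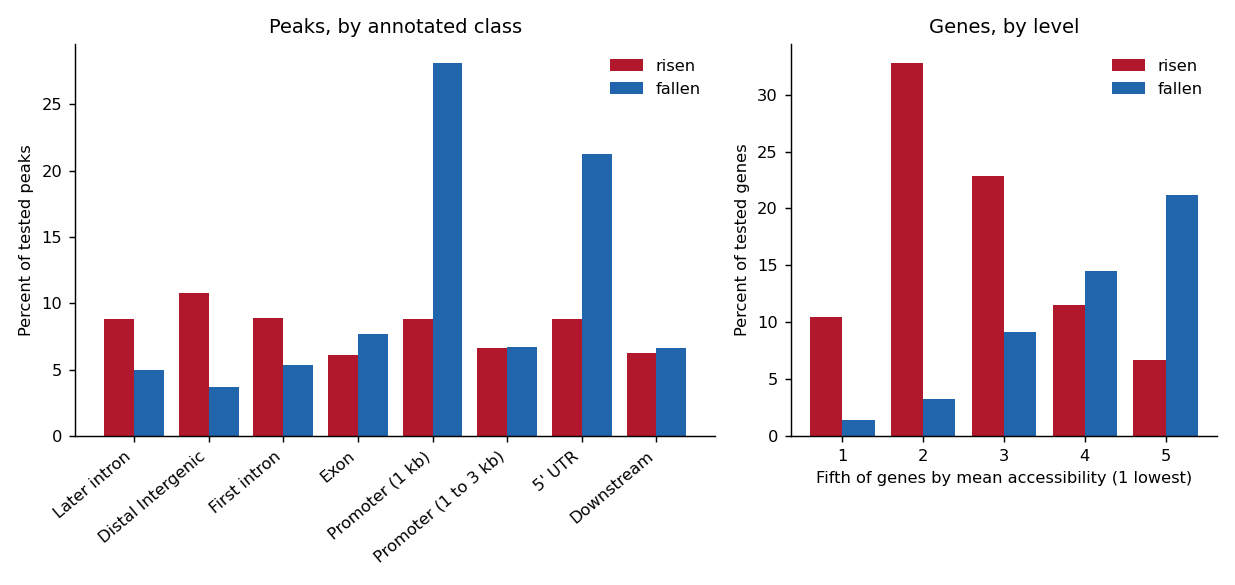
Percent of tested peaks that rose (red) or fell (blue) in TAZ against DMSO by annotated class (left), and percent of tested genes in 5 equal groups by mean accessibility (right). Peaks within 1 kb of a start have the highest bar, 28.1% fallen, and the second lowest group of genes has 32.8% risen.

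Single peaks were ranked by size where the average level on the log2 CPM scale was 2 or more and TAZ and DMSO libraries did not overlap. Of the changed peaks so ranked, 4 of the 5 largest rises were annotated to long noncoding RNA genes by the nearest start, some of them distant. On chromosome 4, a peak 522613 bases from the start of LINC00290 (chr4:180636536-180637567, hg38) had 8.38, 9.92 and 9.53 CPM in TAZ and 2.29, 2.90 and 3.03 CPM in DMSO libraries, a log2 difference of 1.75 (SE 0.11, adjusted p = 7.71e-38). On chromosome 16, a peak at -43526 bases from the start of LINC00917 (chr16:86391298-86393214) had 9.10, 10.9 and 10.8 CPM in TAZ and 3.50, 2.70 and 3.53 CPM in DMSO libraries, a log2 difference of 1.65. Peaks near LINC00908 (chr18:76524979-76525808), LINC02301 (chr14:82626055-82627039) and LNPK (chr2:176018604-176019802) rose by 1.66, 1.64 and 1.64. LNPK, an endoplasmic reticulum junction protein, lies beside the HOXD cluster. All of these peaks rose in COMBO against IPATA, by 1.42 to 2.00.

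By the same rule the 5 largest fallen peaks were annotated to introns or exons of genes. An intronic peak of TOP1, DNA topoisomerase I, (chr20:41119495-41120598) had 5.63, 4.63 and 4.31 CPM in TAZ and 11.9, 10.9 and 12.2 CPM in DMSO libraries, a log2 difference of -1.28 (SE 0.09, adjusted p = 4.3e-31). The exon peak of FZR1 (chr19:3536419-3538421) had 2.99, 3.20 and 2.58 CPM in TAZ and 7.38, 7.02 and 6.81 CPM in DMSO libraries, a log2 difference of -1.27 (SE 0.12, adjusted p = 1.58e-18). In COMBO libraries it had 3.30, 3.40 and 3.93 CPM and in IPATA libraries 4.27, 5.44 and 3.98 CPM, a log2 difference of -0.36 (adjusted p = 0.0828). An intronic peak of ZMIZ1, a transcriptional coregulator, (chr10:79228692-79229875) differed by -1.12, an exon peak of the receptor kinase TYRO3 (chr15:41578025-41578873) by -1.12 and an intronic peak of the metal transporter SLC39A8 (chr4:102338467-102339642) by -1.12, each past the test.

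Some genes gathered many changed peaks. PCSK5, a proprotein convertase, had 43 risen of 76 tested peaks, PTPRD, a receptor tyrosine phosphatase, 41 of 144, FRMD4A, a scaffold protein, 36 of 91 with 2 fallen, and LINC01440 33 of 51. At the gene sums PCSK5 had 116, 123 and 120.0 CPM in TAZ and 95.3, 92.9 and 96.3 CPM in DMSO libraries (log2 difference 0.33, adjusted p = 1.33e-12), whereas LINC01440 differed by 0.05 (adjusted p = 0.922). The peak counts take peaks at any distance from the start, and the gene sums those within 10 kb. Fallen peaks were most numerous at IER3-AS1, 27 of 48 tested, AOPEP, an aminopeptidase, 23 of 100, LINC00673, 23 of 101, and MIR4316, 20 of 46. The gene sum of IER3-AS1 was 286, 293 and 276 CPM in TAZ and 337, 327 and 330.1 CPM in DMSO libraries (log2 difference -0.22, adjusted p = 1.35e-12). Genes with more tested peaks have more chances to be counted in this way.

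The tazemetostat differences recurred on top of ipatasertib. COMBO against IPATA gave 5254 changed genes (24%), 3452 (15.8%) risen and 1802 (8.23%) fallen, and 19678 peaks (8.52%) rose and 13444 (5.82%) fell. Of the 3693 genes risen in TAZ, 3631 (98.3%) had the same sign and 2756 (74.6%) rose there, which is 79.8% of the genes risen in COMBO. Of the 2163 fallen genes, 2082 (96.3%) had the same sign and 946 (43.7%) fell there, 52.5% of the genes fallen in COMBO. No gene changed in opposite directions. Median log2 differences of the risen genes were 0.44 in TAZ against DMSO and 0.41 in COMBO against IPATA, and of the fallen genes -0.18 and -0.13. Across the 5856 changed genes, which are not independent, Pearson's r between both sets of log2 differences was 0.90. These genes were chosen by their TAZ minus DMSO difference, and over all 21895 genes r was 0.75. Of the 13 falls of 1 or more on the log2 scale, 3 passed the test there. A test of the difference between the tazemetostat responses with and without ipatasertib called 0 genes and 0 peaks in edgeR, with 847 genes at an unadjusted p under 0.05, and 0 genes in DESeq2, with 222 at that level.

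**Figure D4:**
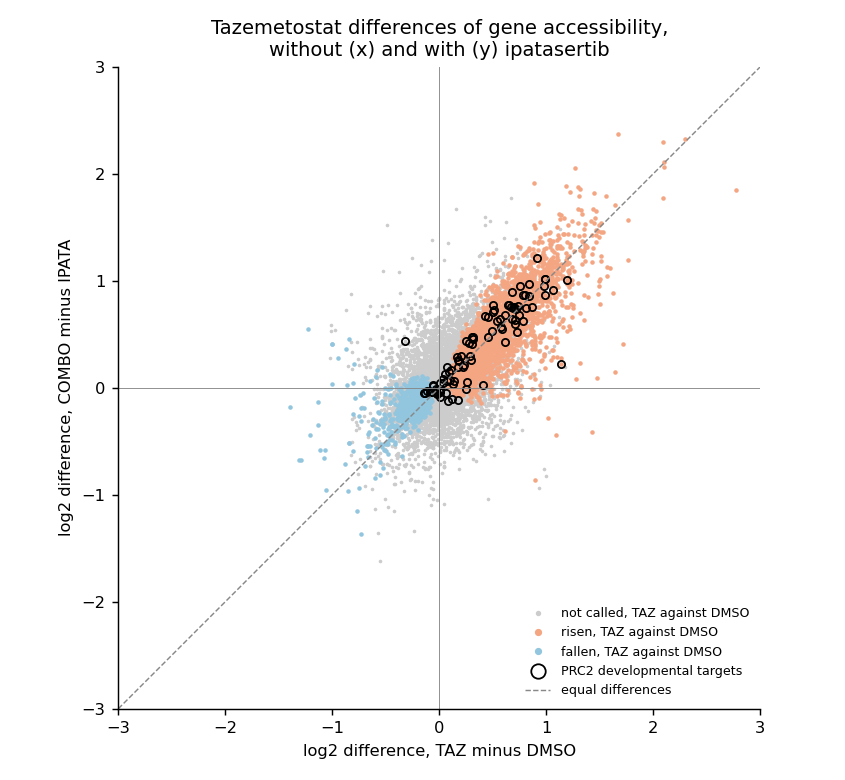
Log2 differences of gene accessibility for TAZ minus DMSO (horizontal) and COMBO minus IPATA (vertical), 1 point per gene; orange and blue points rose or fell in TAZ against DMSO and circles are PRC2 developmental targets. Of the risen genes 98.3% lie above 0 on the vertical axis, and the circles follow the dashed line of equal differences, with medians of 0.31 and 0.42.

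Most genes that rose in SUM-149PT also rose in another line given tazemetostat. In a fit of the 24 TAZ and DMSO libraries of 4 lines, 3985 of 23250 genes (17.1%) had a TAZ minus DMSO difference in SUM-149PT that differed from the mean of the other lines, 1004 (4.32%) higher and 2981 (12.8%) lower. Of the 3693 genes risen in SUM-149PT, 2349 (63.6%) rose in MDA-MB-468, 2332 (63.1%) in SUM-159PT and 1320 (35.7%) in MDA-MB-231, where 26.6%, 24.3% and 14.5% of all genes in both tables rose. All 3 other lines shared 715 (19.4%) of these rises and none shared 511 (13.8%). Among all genes in both tables, 1233 rose in all 3 other lines and 13236 rose in none of them. Of 2161 fallen genes, 1598 (73.9%) fell in SUM-159PT, 1374 (63.6%) in MDA-MB-468 and 749 (34.7%) in MDA-MB-231, where 30.4%, 23.3% and 10.3% of all genes in both tables fell. The PRC2 developmental targets had a median log2 difference of 0.31 in SUM-149PT, 0.61 in MDA-MB-468, 0.57 in SUM-159PT and 0.06 in MDA-MB-231.

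Single genes set SUM-149PT apart in both directions. GABRQ, a GABA receptor subunit, had 6.49, 6.49 and 8.01 CPM in TAZ and 2.17, 3.26 and 3.05 CPM in DMSO libraries of SUM-149PT, a log2 difference of 1.30, against 0.21 in MDA-MB-468, -0.74 in MDA-MB-231 and -0.75 in SUM-159PT. SOX11, a neural progenitor factor, had 10.4, 12.3 and 12.1 CPM in TAZ and 5.42, 3.41 and 4.71 CPM in DMSO libraries, a log2 difference of 1.36, against 0.10, -0.30 and -0.83 in the same 3 lines. For GABRQ and SOX11 no difference within those 3 lines passed the edgeR test (adjusted p of 0.310 to 0.767), so neither gene was called fallen there. NAP1L3 differed by 1.60 in MDA-MB-468, -0.00 in MDA-MB-231 and 0.67 in SUM-159PT. Conversely TBX20, a cardiac T-box factor, had 77.2, 81.6 and 82.7 CPM in TAZ and 80.6, 80.8 and 79.3 CPM in DMSO libraries, a log2 difference of 0.01, and was 2.47, 1.48 and 3.01 in MDA-MB-468, MDA-MB-231 and SUM-159PT. NEFL, a neurofilament gene, had 69.1, 72.7 and 69.9 CPM in TAZ and 67.5, 68.2 and 69.1 CPM in DMSO libraries, and TBX20 and NEFL did not differ past the threshold. PNLIPRP1, a pancreatic lipase relative, differed by -0.01 in SUM-149PT and by 3.30, 1.12 and 2.38 in the other lines. FOLH1, PROX1, LRRTM1, NLGN4X, ROBO2 and ARPP21 rose in SUM-149PT by amounts that did not pass the test of a difference from the other lines, with adjusted p of 0.165 to 0.969.

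**Figure D5:**
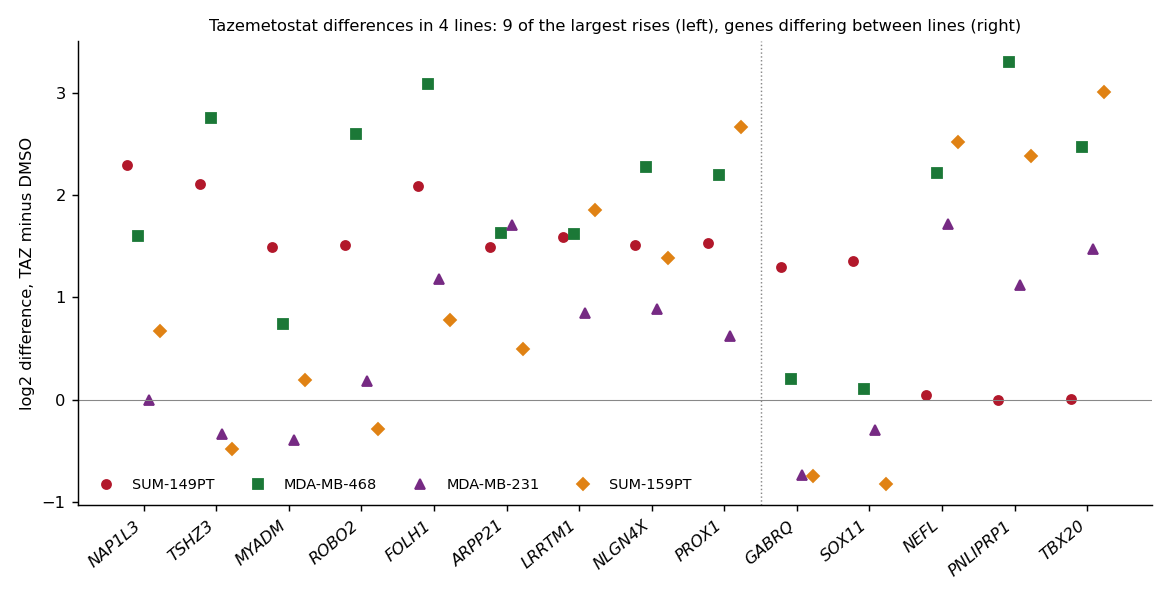
Log2 difference of gene accessibility, TAZ minus DMSO, in SUM-149PT (red circles) and the other 3 lines; left of the dotted line are 9 of the 10 largest rises in SUM-149PT and right of it the 5 further genes named for a difference between lines. GABRQ and SOX11 are above 1 in SUM-149PT and at or below 0.21 elsewhere, and NEFL, PNLIPRP1 and TBX20 are near 0 in SUM-149PT and above 1.1 in the other lines.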

How the data were processed

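Per the submitters' processing notes, reads were placed on hg38 and MACS2 and featureCounts were used; for versions and settings, the sources used here give none. The deposited values are raw counts per peak, 861439 peaks by 78 libraries, with a deposited annotation that ties each peak to 1 gene by its start site; for 61 peaks there is no gene. Libraries of a further line (6 in the labels) were not analysed here. Because reads were counted in 1 shared peak set, gene values depend on which start the annotation chose: a promoter peak shared with an antisense or divergent gene enters only 1 sum.

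From these counts, gene values were summed over peaks within 10 kb of the start, and CPM were scaled by TMM. The 12 SUM-149PT libraries were fitted together in edgeR 4.0.16 (R 4.3.3; filterByExpr with a minimum count of 10; robust quasi-likelihood test; Benjamini-Hochberg adjustment over all genes or peaks, threshold 0.05), and the 24 TAZ and DMSO libraries of 4 lines for the comparison between lines. SE is the log2 difference divided by the square root of F. The fits were tested on simulated data. Replicate numbers did not pair samples. Alternatives were DESeq2 1.42.0, other scalings, filters and windows, fits of TAZ and DMSO alone, a replicate block, and omission of single libraries.

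The members, the 22 gene lists, the panel of 24 genes (23 tested) and the rules were chosen with earlier results of these data known. Named genes are the 10 largest rises and falls (adjusted p under 0.05, mean log2 CPM of at least 2, no overlap, protein-coding), the panel, up to 4 changed members of each list, the 5 largest risen and fallen peaks, 4 and 4 genes with most changed peaks, and 3 and 3 genes that differ most from the other lines. Of these, 2 genes are not reported here. Promoter windows are RefSeq's (GRCh38.p14); 87 of 120 named genes matched.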

Additional observations from a re-analysis of the deposited data

Results flagged for a closer look

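Of 47 named genes compared between lines with edgeR, 15 had a TAZ minus DMSO difference in SUM-149PT that departed from the mean of the other 3 lines, 7 higher and 8 lower. Of these, 6 were named because they differ most from the other lines, so the count shows nothing by itself; 17.1% of all genes differed. The values that follow are the SUM-149PT difference minus that mean, on the log2 scale. Higher in SUM-149PT were GABRQ at 1.70 (adjusted p = 0.00208), SOX11 at 1.68 (adjusted p = 0.000117), NAP1L3 at 1.52, TSHZ3 at 1.44, MYADM at 1.30, KRT8 at 0.36 and KRT5 at 0.28. TSHZ3 was at 2.75 in MDA-MB-468, so SUM-149PT lay below that line and above MDA-MB-231 (-0.34) and SUM-159PT (-0.48). KRT8, at 0.10 in SUM-149PT, lay below MDA-MB-231 (0.24) and above MDA-MB-468 (-0.54) and SUM-159PT (-0.52).

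Lower in SUM-149PT were TBX20 at -2.33 (adjusted p = 9.71e-59), PNLIPRP1 at -2.29 (adjusted p = 3.82e-16), NEFL at -2.12 (adjusted p = 6.21e-40), CCDC7 at -0.86, PCDHGA1 at -0.61, KRT14 at -0.34, FOXA1 at -0.23 and FOXO1 at -0.14. FOXA1 and FOXO1 did not pass the test within SUM-149PT, at -0.03 and -0.07. FOXA1 was at -0.03 in MDA-MB-468, 0.65 in MDA-MB-231 and -0.09 in SUM-159PT, so SUM-149PT lay well below MDA-MB-231 only. FOXO1 was at 0.03, -0.12 and 0.23 in the same lines, so SUM-149PT lay above MDA-MB-231. KRT5 was lower in TAZ than in DMSO libraries of SUM-149PT and lower still, by the mean, in the other lines, at -0.11 in MDA-MB-468, -0.61 in MDA-MB-231 and -0.60 in SUM-159PT. Groups of 3 libraries were not screened for single outlying libraries.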

How the results depend on the processing

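The 161 named values and list medians were recomputed under other settings, and 2324 of the results counted as unchanged. For named values this means the same side of the threshold, and signs were not compared where neither setting gave a call. For list medians it means a shift of no more than the SD of the median across TAZ libraries. Of the others 128 lost significance, 9 gained it and 3 with a call in either setting changed sign. A further 59 list medians or counts, which have no test, moved. KRT5 was at 0.022 and FAP at -0.11 over peaks within 1 kb of the start, and KRT8 was at -0.11 over peaks within 50 kb. The PRC2 developmental targets kept a median of 0.28 to 0.40, with 47 risen by DESeq2 and 34 of 71 tested over peaks within 1 kb. AOPEP, FGL2, BCL2L2, BBC3, CDK2, MCM5, OAS1, CXCL9 and FRMD4A lost their calls without single libraries and under other settings. DESeq2 called 3429 genes in TAZ against DMSO (935 fallen), 3059 in COMBO against IPATA and 14374 peaks (8404 risen, 5970 fallen), and the cause was not tested. Summed over peaks within 1 kb, which leaves 16036 genes tested, 3190 genes changed (2248 risen, 942 fallen), and 2671 in COMBO against IPATA. Summed over peaks within 50 kb, 9216 changed (4218 fallen), 8598 in COMBO against IPATA, and the interaction with ipatasertib was called for 1 gene. With no filter, over 859499 peaks, 12953 peaks rose and 17416 fell, so falls then outnumbered rises. Against MDA-MB-231 in place of the mean of 3 lines, 2262 genes differed. Without single libraries, 4496 to 5692 genes changed, 3067 to 3594 risen and 1429 to 2098 fallen. The same omissions left 26012 to 31984 changed peaks, 15082 to 17930 risen and 10930 to 15465 fallen, with the fewest falls without DMSO replicate 2 (10930) and TAZ replicate 1 (11084).

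With the replicate number as a block, 5834 genes (3677 risen, 2157 fallen), 37617 peaks and 0 interactions were called. Libraries of the same number did not deviate together (correlations of -0.097 to -0.009 between the groups), so the number was not taken as a pairing. The DESeq2 runs for COMBO against IPATA and for the interaction, and the counts of risen PRC2 targets, were chosen after seeing the data. Depth limits the weakest peaks: median levels of risen peaks lie near 1.58 CPM in DMSO libraries.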

Other observations

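The changes were spread unevenly over the chromosomes. Of the tested peaks on chromosome 19, 5.05% rose and 15.9% fell in TAZ against DMSO, and on chromosome X 10.6% rose and 3.85% fell, beside 8.94% and 7.30% of all tested peaks. Of 568 tested genes annotated as miRNA genes, 12.9% rose and 8.80% fell.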
